A study of Mus musculus with 28 samples.

Results

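Resting calf muscle without the kinase LKB1 was compared with resting wild-type calf muscle. The comparison uses 14 of the 28 samples of the series: 7 from mice with a skeletal muscle specific knockout of LKB1 and 7 from wild-type mice, all unstimulated, grouped by their titles. All are on the FVB background, labelled female and 4 months old, and each sample is whole RNA of the gastrocnemius, plantaris and soleus as 1 muscle group. The other 14 samples, 7 per genotype, were taken immediately after 15 min of contraction driven through the sciatic nerve, and they enter the estimate of the spread. Genes were measured on Illumina bead arrays with 25697 probes. A gene was included when a probe exceeded an intensity of 24, the dim limit, on at least 7 of the 28 arrays, and its brightest probe stood for it, which gave 8389 genes. How the knockout was driven, and whether equal sample numbers mark 1 animal, stay unstated in the sources used here.

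LKB1, encoded by Stk11, phosphorylates and activates the energy sensor AMPK and a family of related kinases that includes the SIK, MARK, NUAK, BRSK and SNRK enzymes. In muscle, AMPK responds to a falling energy charge, and its known effects include glucose uptake, fatty acid oxidation and expression of mitochondrial genes through the coactivator PGC-1alpha. Mice that lack LKB1 in muscle are known for low AMPK activity in the tissue. Values below are log2 intensities after background correction, and a difference is the knockout mean minus the wild-type mean on that scale. A gene is called when its adjusted p in limma's fit to all arrays is under 0.05.

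The 14 resting samples were not alike within a genotype. Xist is transcribed from the inactive X chromosome of female cells, and Eif2s3y lies on the Y chromosome. Although every sample is labelled female, Eif2s3y stood at 7.39 to 7.71 in knockout samples 1, 3, 4 and 6 and at 5.85 to 6.27 in knockout samples 2, 5 and 7. In wild type it was 7.53 and 7.32 in samples 4 and 5 and 6.02 to 6.30 in the other 5. Both Xist probes ran the opposite way with no overlap, at 6.005 to 6.431 and 6.21 to 6.60 in all Eif2s3y-high samples of the series and at 6.965 to 7.658 and 6.795 to 7.886 in all Eif2s3y-low ones. The 4 knockout and 2 wild-type resting samples with the Y-linked transcript are called Eif2s3y-high below, and the 3 knockout and 5 wild-type samples without it Eif2s3y-low. The contracted sample of the same genotype and number showed the same pattern in 14 of 14 cases. Results are given for all 14 resting samples, and counts and the main genes and lists also within each pattern, a division chosen after the data were seen.

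**Figure D1:**
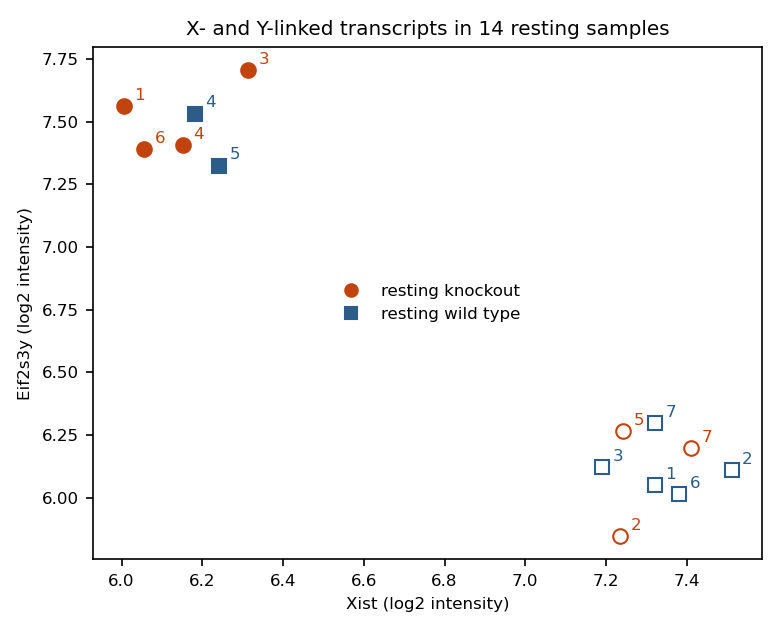
Each point is 1 resting sample, placed by its log2 intensity of Xist (horizontal axis, the first of its 2 probes) and Eif2s3y (vertical axis) and numbered as in the labels; circles are knockout, squares wild type. Knockout samples 1, 3, 4 and 6 and wild-type samples 4 and 5 lie at high Eif2s3y and low Xist, and the other 8 samples at the opposite corner.

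Markers of other cells moved in single samples. The mean log2 level of 11 lymphocyte markers was 8.55, 8.58 and 10.13 in knockout samples 1, 2 and 4, against 9.395 and 9.143 in wild-type samples 4 and 5, and 6.862 to 7.601 in the other resting samples. Between genotypes 11 of these 11 markers lay above 0, with a median difference of 0.354 and 0 called. The 13 slow-fibre genes averaged 10.25 in knockout sample 4, below the 11.63 to 12.29 of the other 6 knockout samples and the 11.78 to 12.24 of wild type. Skeletal muscle markers were high throughout, with a mean of 13.69 to 14.12 in knockout and 13.84 to 14.18 in wild type. Fewer cells of a type and less RNA per cell cannot be told apart in whole muscle. The sources used here name no hybridisation batch or array chip, and a batch was not tested. The labels do not say that samples of a genotype come from separate animals, so p-values measure only the spread between these samples.

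The targeted gene was examined first. Stk11 ranged from 8.56 to 9.32 with a median of 9.05 in knockout muscle, against 10.10 to 10.64 with a median of 10.26 in wild type. No knockout sample reached a wild-type one, and the mean fell to 38.9% of the wild-type mean (log2 difference -1.36, SE 0.12, adjusted p = 1.08e-07 by limma). The sources used here do not say whether the Stk11 probe falls in the deleted stretch, and cells other than muscle fibres keep the gene. The decrease was present within the Eif2s3y-high samples (-1.05, adjusted p = 0.00183) and within the Eif2s3y-low ones (-1.58, adjusted p = 5.35e-06).

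Transcripts of the kinases that LKB1 activates were not called over all 14 samples. Of 8 measured genes of the LKB1 complex and AMPK, Stk11 was the 1 that fell, and 0 of 8 AMPK-related kinases passed the test, where 3.75% of all genes did. Prkaa2, the alpha2 catalytic subunit of AMPK, had 10.59 to 11.78 in knockout, median 11.41, and 10.85 to 11.90 in wild type, median 11.57 (difference -0.13, SE 0.18, adjusted p = 0.70). A second probe of Prkaa2 differed by -0.62 (unadjusted p = 0.0471). The regulatory subunits Prkab2 and Prkag1 differed by -0.30 (SE 0.17) and -0.25 (SE 0.11), with adjusted p of 0.293 and 0.168. The largest shift among the related kinases was that of Snrk, at -0.48 (SE 0.27, adjusted p = 0.302). Snrk was called within the Eif2s3y-high samples (-0.74, SE 0.20, adjusted p = 0.0407), the 1 of the 8 related kinases, and differed by 0.03 within the low ones (adjusted p = 0.939).

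Across all 8389 genes 315 were called (3.75%): 153 were higher in knockout (1.82%) and 162 lower (1.93%). Their median absolute difference was 0.60, and the median over all genes was -0.01. A change of over 2-fold was reached by 45 called genes (0.536%), of which 34 rose and 11 fell. In 80 genes (0.954%) the 7 knockout samples did not overlap the 7 wild-type ones, 42 with knockout above and 38 with knockout below, and 69 of the 80 were called. The remaining 246 called genes overlapped between the groups. Knockout sample 1 carried much of this count: without it 109 genes were called, and without knockout sample 7 it was 676. Without knockout sample 6 or wild-type samples 2, 3, 1, 6 or 7 the counts were 167, 160, 190, 206, 206 and 203. Of 90 called genes among the 140 followed by name, 35 were called in each of the 14 fits that left out 1 resting sample, and an adjusted p given below as without a sample is the highest of those 14. Dusp26 (adjusted p = 0.0467) lost its call in 12 of the 14, with an adjusted p of up to 0.109, and Chrng, Gadd45a, Rapsn, Slc7a5, Scn4b and Esrra each in 11. Without the 5 samples high in lymphocyte markers, which leaves 4 knockout and 5 wild-type arrays, 14 genes were called, 13 of them among the 315. A fit to the 14 resting arrays alone called 226 genes, 204 of them among the 315.

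**Figure D2:**
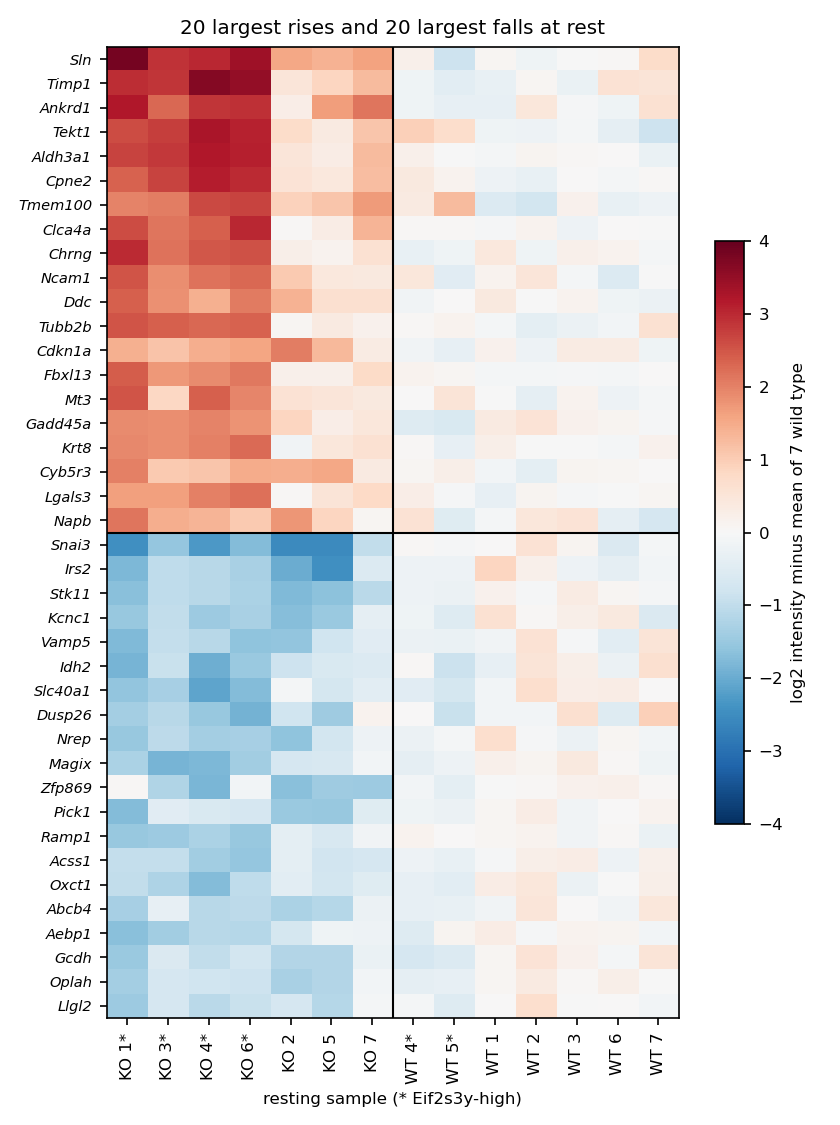
Each row is a gene and each column a resting sample, with knockout on the left and wild type on the right and asterisks on Eif2s3y-high samples; colour is the log2 intensity minus the mean of the 7 wild-type samples. Knockout samples 1, 3, 4 and 6 are darkest in most of the 20 largest rises, and the 20 largest falls are spread more evenly over the knockout samples.

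The largest rise was in a gene of calcium handling. Sarcolipin (Sln), a small membrane protein that inhibits the calcium pump of the sarcoplasmic reticulum, ranged from 12.54 to 14.99 in knockout with a median of 14.05, against 10.31 to 11.88 in wild type with a median of 11.19. All 7 knockout samples lay above all 7 wild-type samples, and the mean was 5.76-fold higher (log2 difference 2.53, SE 0.39, adjusted p = 0.000817). Camk2d, the delta subunit of the calcium/calmodulin-dependent kinase II, rose by 0.87 (SE 0.24, adjusted p = 0.0376, but 0.11 without knockout sample 1). These were the 2 called of 31 measured genes of reticulum calcium handling, whose median difference was 0.089. Other, dimmer probes of Camk2d differed by 0.54 and 0.009 (unadjusted p = 0.000566 and 0.91). Casq2, the calsequestrin of slow fibres, differed by -0.84 (SE 0.26, adjusted p = 0.0647), and Jph1, a junctophilin that ties the reticulum to the T-tubule, by 0.45 (SE 0.14, adjusted p = 0.0668).

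Some genes that respond to stretch of muscle rose. Ankrd1, a titin-associated ankyrin repeat protein of the sarcomere, had 8.44 to 11.39 in knockout with a median of 10.46 and 7.85 to 8.78 in wild type with a median of 8.01. Only knockout sample 2, at 8.44, fell inside the wild-type range, and the mean was 4.58-fold higher (2.19, SE 0.42, adjusted p = 0.00426). Its second, dimmer probe differed by 0.52 (unadjusted p = 0.0176). Mustn1, a small nuclear protein of muscle and tendon, rose by 1.14 (SE 0.31, adjusted p = 0.0376), and Csrp3, the muscle LIM protein of the Z-disc, rose by 0.80 (SE 0.22, adjusted p = 0.0398). Without knockout sample 1 these 2 had adjusted p of 0.107 and 0.116. Together these were the 3 called of 16 measured stretch and developmental contractile genes, with a median difference of 0.27. Popdc3 and Bves, the neighbouring Popeye-domain genes of chromosome 10 that bind cAMP, were singled out after their values were seen. Both were above wild type in all 7 knockout samples, by 0.98 (SE 0.20, adjusted p = 0.00781) and 0.46 (SE 0.08, adjusted p = 0.00316).

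**Figure D3:**
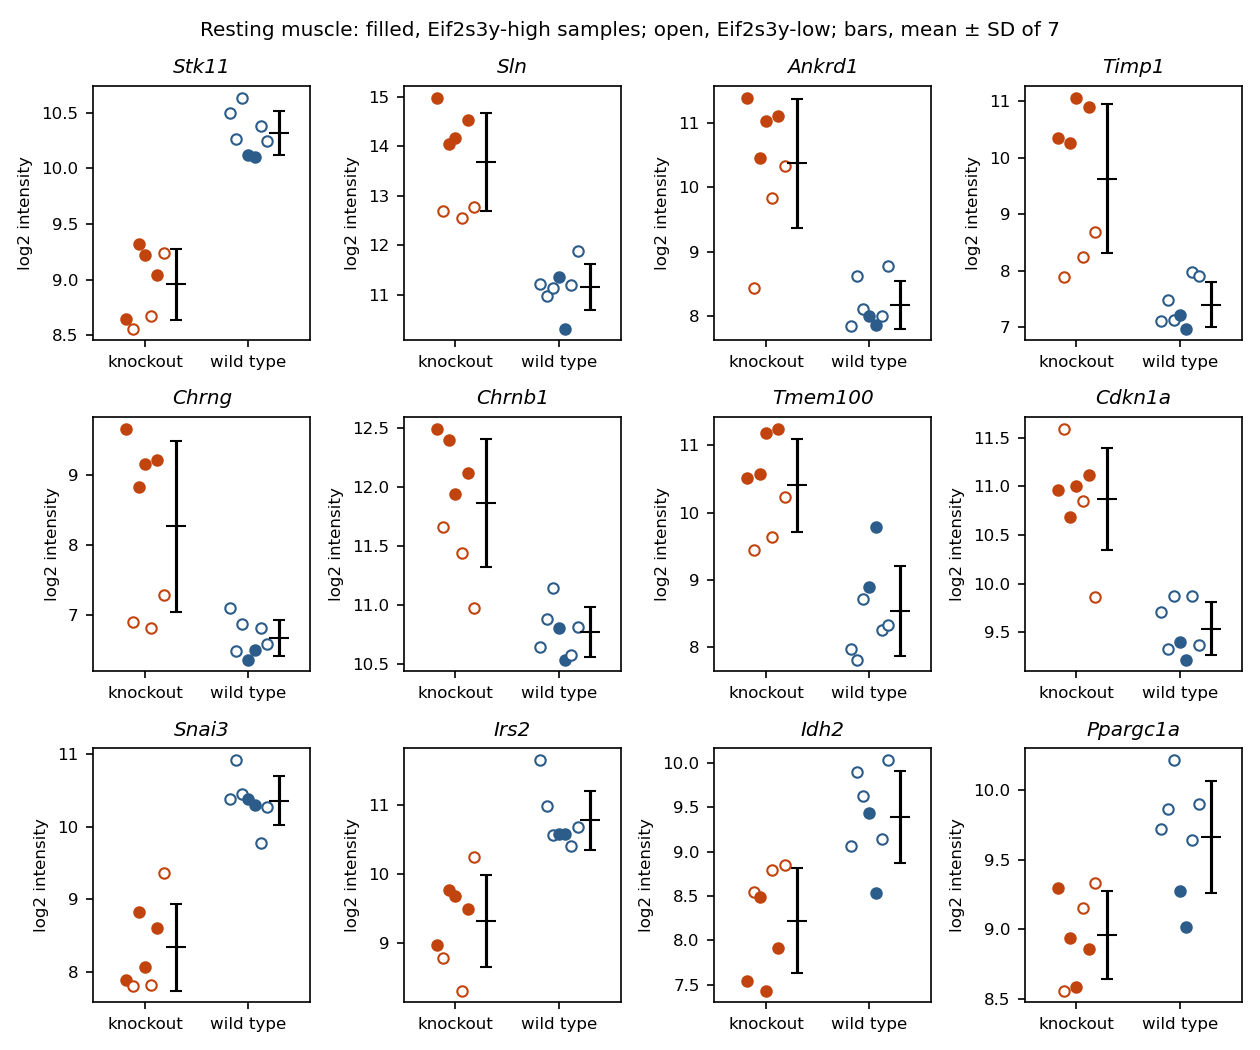
Each panel gives the log2 intensity of 1 gene in the 7 resting knockout samples (left) and the 7 resting wild-type samples (right), filled where the sample is Eif2s3y-high, with the mean ± SD of 7 beside each group. Stk11, Sln, Snai3 and Irs2 do not overlap between the genotypes, and Timp1, Chrng and Sln separate filled from open points within knockout.

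Subunits of the muscle acetylcholine receptor were higher in knockout. This ligand-gated channel of the neuromuscular junction holds a gamma subunit in fetal and denervated muscle and an epsilon subunit in the innervated adult. Chrnb1, the beta subunit, ranged from 10.98 to 12.49 in knockout, median 11.94, against 10.54 to 11.14 in wild type, median 10.81. Only knockout sample 7 lay within the wild-type range, and the difference was 1.09 (SE 0.22, adjusted p = 0.00696), with 1.29 at a second probe. Chrne, the epsilon subunit, had 8.30 to 9.56 in knockout and 6.72 to 8.27 in wild type, without overlap (1.10, SE 0.25, adjusted p = 0.0142). Chrng, the gamma subunit, had 9.66, 8.83, 9.16 and 9.22 in knockout samples 1, 3, 4 and 6 and 6.90, 6.82 and 7.28 in samples 2, 5 and 7, against 6.36 to 7.10 in wild type. It rose in the mean by 1.59 (SE 0.45, adjusted p = 0.0428, but 0.129 without knockout sample 1), and it was above the dim limit on 3 of the 7 wild-type arrays. The size of the Chrng rise therefore depends on the background correction. Chrna1, the alpha subunit, named after its values were seen, had the same division, with 10.73 to 11.45 in the Eif2s3y-high knockout samples and 8.51 to 9.28 in the other 3 and in wild type, and was not called (1.24, SE 0.41, adjusted p = 0.0831).

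The promoters of the 4 receptor subunits are shown because these genes are classical targets of myogenic factors that bind the E-box CANNTG. The sequences are RefSeq's for the GRCm38.p6 build, 300 bases each, and capitals mark CAGCTG, which reads the same on both strands.
Chrng, chr1:87205561-87205860 (plus strand): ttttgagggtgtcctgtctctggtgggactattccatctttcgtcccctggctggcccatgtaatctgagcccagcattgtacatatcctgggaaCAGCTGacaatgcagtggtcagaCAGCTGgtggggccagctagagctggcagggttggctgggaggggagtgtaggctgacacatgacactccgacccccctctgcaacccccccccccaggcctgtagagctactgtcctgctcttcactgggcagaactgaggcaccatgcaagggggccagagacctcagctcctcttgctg
Chrna1, chr2:73580289-73580588 (minus strand): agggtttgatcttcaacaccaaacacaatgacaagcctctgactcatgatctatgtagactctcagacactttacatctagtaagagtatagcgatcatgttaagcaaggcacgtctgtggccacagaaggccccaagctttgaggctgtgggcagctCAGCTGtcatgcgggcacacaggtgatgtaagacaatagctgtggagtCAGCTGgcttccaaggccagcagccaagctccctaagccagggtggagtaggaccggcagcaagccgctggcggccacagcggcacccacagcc
Chrne, chr11:70619145-70619444 (minus strand): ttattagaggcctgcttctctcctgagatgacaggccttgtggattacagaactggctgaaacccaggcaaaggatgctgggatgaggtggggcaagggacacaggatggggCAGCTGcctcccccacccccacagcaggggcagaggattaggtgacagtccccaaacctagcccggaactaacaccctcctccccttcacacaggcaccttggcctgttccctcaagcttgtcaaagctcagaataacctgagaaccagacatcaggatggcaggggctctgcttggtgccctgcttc
Chrnb1, chr11:69795888-69796187 (minus strand): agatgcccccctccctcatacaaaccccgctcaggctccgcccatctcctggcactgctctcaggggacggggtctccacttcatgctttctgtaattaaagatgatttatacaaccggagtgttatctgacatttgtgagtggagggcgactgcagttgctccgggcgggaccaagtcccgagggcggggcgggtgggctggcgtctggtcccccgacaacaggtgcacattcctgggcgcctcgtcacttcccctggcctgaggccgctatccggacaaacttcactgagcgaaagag
The motif CAGCTG, itself one form of CANNTG, occurs 2 times in the window of Chrng, 2 times in that of Chrna1, 1 time in that of Chrne and 0 times in that of Chrnb1, which holds 3 matches to CANNTG. It occurs in 16.3% of 32851 promoters of this length, and 1.9% hold 2 or more. A match of letters is a description and not a shown binding site.

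Other synaptic genes moved in both directions. Ncam1, the neural cell adhesion molecule that spreads along denervated fibres, rose by 1.53 (SE 0.36, adjusted p = 0.0182, but 0.0575 without knockout sample 1). Its second, dimmer probe differed by 0.26 (unadjusted p = 0.0778). Rapsn, the scaffold that clusters the receptor, fell by 0.38 (SE 0.11, adjusted p = 0.0428, but 0.116 without knockout sample 1). Other probes of Rapsn differed by -0.07 and -0.32 (unadjusted p = 0.638 and 0.00734). Of 16 measured receptor and synapse genes 4 rose and 1 fell, and their median difference was 0.14. Myog and Myf6, myogenic transcription factors, differed by 0.77 (SE 0.25, adjusted p = 0.0781) and 0.68 (SE 0.22, adjusted p = 0.0725). Runx1, a transcription factor raised by denervation, differed by 0.38 (SE 0.17, adjusted p = 0.195). Its wild-type values, 6.36 to 6.88, were mostly near the dim limit, so this size depends on the background correction. Of Schwann cell markers 0 of 7 were called, with means of 7.56 to 8.10 in knockout and 7.66 to 8.21 in wild type.

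Single genes of growth arrest and of redox chemistry rose. Of 20 measured p53 and growth arrest genes 2 rose and 0 fell, with a median of -0.00112, and of 33 antioxidant and aldehyde enzymes 1 rose (3.03%), with a median of 0.06. Cdkn1a, which encodes the cell cycle inhibitor p21, had 9.87 to 11.60 in knockout, median 10.96, against 9.22 to 9.88 in wild type, median 9.40. Knockout sample 7 alone reached the wild-type range, and the gene was 2.52-fold higher (1.33, SE 0.21, adjusted p = 0.00109), with 1.08 and 1.27 at its 2 other probes. Gadd45a, a growth arrest gene induced by DNA damage and by denervation, rose by 1.30 (SE 0.36, adjusted p = 0.042, but 0.11 without knockout sample 1). Cyb5r3, the NADH-cytochrome b5 reductase, ranged from 9.73 to 11.39 in knockout and from 8.99 to 9.63 in wild type, without overlap (1.28, SE 0.20, adjusted p = 0.000817). Aldh3a1, a dimeric aldehyde dehydrogenase, had 9.28, 9.40, 9.79 and 9.70 in knockout samples 1, 3, 4 and 6 and 6.87 to 7.86 in samples 2, 5 and 7, against 6.32 to 6.79 in wild type. It rose by 1.98 (SE 0.49, adjusted p = 0.0214, but 0.0618 without knockout sample 1), and 2 of 7 wild-type arrays showed it above the dim limit. Since wild type was mostly under the limit, the size of the Aldh3a1 rise depends on the background correction.

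Timp1, an inhibitor of matrix metalloproteinases, had 7.88 to 11.06 in knockout, median 10.25, and 6.97 to 7.97 in wild type, median 7.22. It was over 10 in knockout samples 1, 3, 4 and 6, and the other 3 lay at 7.88, 8.24 and 8.68 (difference 2.22, SE 0.47, adjusted p = 0.00859), with 2.15 at a second probe. Lgals3, galectin-3, which macrophages and regenerating fibres express, rose by 1.26 (SE 0.30, adjusted p = 0.0189, but 0.0528 without knockout sample 1). These were 2 of 31 measured matrix and protease inhibitor genes, with a median of 0.27. Of 10 macrophage markers Lgals3 was the 1 called, and 8 lay above 0, with a median difference of 0.467. The macrophage mean ranged from 8.01 to 9.11 in knockout and from 7.63 to 8.42 in wild type, and its part in these results was not tested. The fibroblast mean was 8.82 to 10.03 in knockout and 8.59 to 9.43 in wild type, with 0 of 12 markers called. Of these markers 9 lay above 0, with a median difference of 0.18. Lyz2 of macrophages and Lum of fibroblasts differed by 1.27 (SE 0.57, adjusted p = 0.193) and 0.91 (SE 0.31, adjusted p = 0.0944).

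Further large rises included transcripts that most wild-type arrays did not show above the dim limit. Tmem100, a transmembrane protein best known from endothelium, had 9.45 to 11.25 in knockout and 7.81 to 9.79 in wild type (1.87, SE 0.33, adjusted p = 0.00266). Its highest wild-type value, 9.79, was that of Eif2s3y-high sample 5. Ddc, the aromatic L-amino acid decarboxylase, was above the dim limit on 7 knockout arrays and 1 wild-type array, with 7.06 to 8.81 in knockout and 6.20 to 6.82 in wild type (1.49, SE 0.24, adjusted p = 0.00109). Since wild type was mostly under the limit, the gene entered the test through the knockout samples and the size of its difference depends on the background correction. Clca4a, a chloride channel accessory protein, and Fbxl13, an F-box protein, were not above the dim limit on any wild-type array. Measured against the limit they were at least 2.07-fold and at least 2.24-fold higher in knockout, with adjusted p of 0.0251 and 0.0227 (0.0779 and 0.0756 without knockout sample 1). Tekt1, a ciliary tektin, Cpne2, a calcium-dependent lipid-binding copine, and Tubb2b, a beta tubulin of neurons, rose by 1.99 (SE 0.49), 1.91 (SE 0.44) and 1.45 (SE 0.40), with adjusted p of 0.0226, 0.0167 and 0.0391. Without knockout sample 1, Tekt1 and Tubb2b had adjusted p of 0.0642 and 0.112. Krt8 and its filament partner Krt18, the keratins of simple epithelia, were both called (adjusted p = 0.0328, but 0.0935 without knockout sample 1, and adjusted p = 0.0132). Krt8 rose by 1.28 (SE 0.34). Krt18, picked after its values were seen, was above the dim limit on 5 knockout arrays and 0 wild-type arrays and was at least 1.66-fold higher in knockout. Mt3, the brain-type metallothionein, and Napb, a vesicle fusion factor, rose by 1.31 (SE 0.36, adjusted p = 0.0404) and 1.25 (SE 0.34, adjusted p = 0.0398), with adjusted p of 0.122 and 0.114 without knockout sample 1. Mt3 was above the dim limit on 7 knockout arrays and 1 wild-type array. As with Ddc, the filter let in Clca4a, Fbxl13, Krt18 and Mt3 mostly through knockout samples. Their p-values are therefore no separate support, and the size of the Mt3 rise depends on the background correction.

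Chaperone genes rose in part. Hspb8, a small heat shock protein that works with Bag3 in clearing damaged proteins, had 11.61 to 13.01 in knockout and 10.98 to 11.75 in wild type (1.08, SE 0.24, adjusted p = 0.0116). Dnajb1, a co-chaperone of Hsp70, did not overlap, with 9.14 to 9.98 in knockout and 8.67 to 9.13 in wild type (0.54, SE 0.14, adjusted p = 0.0253, but 0.0671 without knockout sample 1). Hspa1a, an inducible Hsp70, rose by 1.24 (SE 0.35, adjusted p = 0.0427, but 0.131 without knockout sample 1). These were the 3 called of 22 measured chaperones, whose median was 0.22. In autophagy Map1lc3a rose by 0.56 (SE 0.14, adjusted p = 0.0278, but 0.0804 without knockout sample 1), the 1 called of 24 genes. A second probe of Map1lc3a differed by 0.38 (unadjusted p = 0.125). Sqstm1, the p62 cargo receptor, differed by 0.45 (SE 0.16, adjusted p = 0.0942).

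The largest decrease was in a transcription factor. Snai3, a zinc finger repressor of the Snail family, ranged from 7.81 to 9.36 in knockout, median 8.06, against 9.77 to 10.93 in wild type, median 10.38. The groups did not overlap and the knockout mean was 24.7% of the wild-type mean (log2 difference -2.02, SE 0.26, adjusted p = 5.89e-05). Snai3 was called within both Eif2s3y patterns, with adjusted p of 0.0101 in the high samples and 0.0234 in the low ones, where it differed by -2.03. Rnf166, its neighbour among the measured genes of chromosome 8, and the nearby Zfpm1, which encodes the GATA cofactor FOG1, fell as well. They fell by 0.76 (SE 0.20, adjusted p = 0.03, but 0.0857 without knockout sample 1) and by 0.74 (SE 0.15, adjusted p = 0.00696). On chromosome 8 as a whole 29 of 467 measured genes were called (6.21%), 12 higher and 17 lower, and these neighbours were picked after their values were seen. Slc7a5, a neutral amino acid transporter, and Fbxo31, an F-box protein, lie near them and rose by 0.60 (SE 0.17, adjusted p = 0.0404, but 0.0961 without wild-type sample 7) and 0.51 (SE 0.14, adjusted p = 0.0385, but 0.0937 without knockout sample 1). A second probe of Fbxo31 differed by 0.098 (unadjusted p = 0.456).

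Irs2, an adaptor that carries signals from the insulin receptor, had 8.31 to 10.24 in knockout, median 9.49, and 10.41 to 11.65 in wild type, median 10.58. No sample overlapped, and the knockout mean was 36.4% of wild type (-1.46, SE 0.32, adjusted p = 0.013). Irs2 differed by -1.10 (adjusted p = 0.311) in the Eif2s3y-high and -1.74 (adjusted p = 0.0643) in the low samples. It was the 1 called of 21 measured genes of insulin and IGF signalling. Kcnc1, a fast potassium channel, fell to 41.9% (-1.26, SE 0.22, adjusted p = 0.00266), and it was joined by Scn4b, a sodium channel beta subunit (-0.49, SE 0.13, adjusted p = 0.0398), and Clcn3, a chloride/proton exchanger (-0.47, SE 0.13, adjusted p = 0.0406). These were 3 of 22 measured channels and pumps, with a median of -0.16. Without knockout sample 1 Scn4b had an adjusted p of 0.109, and without wild-type sample 2 Clcn3 had 0.107. A second, dimmer probe of Kcnc1 differed by -0.23 (unadjusted p = 0.072). Vamp5, a muscle vesicle protein of the GLUT4 compartment, fell to 44.1% without overlap, at 7.21 to 8.50 in knockout and 8.56 to 9.53 in wild type (-1.18, SE 0.21, adjusted p = 0.00266). Stx4a, the syntaxin that receives GLUT4 vesicles at the cell surface, rose by 0.51 (SE 0.13, adjusted p = 0.0215, but 0.0567 without knockout sample 1). Slc40a1, the iron exporter ferroportin, fell by 1.14 (SE 0.32, adjusted p = 0.0421, but 0.107 without knockout sample 1).

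Other large falls were in single genes of varied roles. Nrep, a regeneration-related neuronal protein, fell to 46.3% and Ramp1, the subunit that makes a receptor for calcitonin gene-related peptide, to 50.5%, with adjusted p of 0.00304 and 0.0071. Ramp1 differed by -1.51 within the Eif2s3y-high samples (adjusted p = 0.000168) and -0.36 within the low ones (adjusted p = 0.253). Of endothelial and mural markers 0 of 17 were called and 13 lay below 0, with a median difference of -0.207. Oxct1, which starts the oxidation of ketone bodies, had 10.80 to 12.11 in knockout and 12.11 to 12.99 in wild type (-0.94, SE 0.21, adjusted p = 0.0142). Acss1, the mitochondrial acetyl-CoA synthetase, had 9.43 to 10.60 in knockout and 10.70 to 11.30 in wild type (-0.95, SE 0.21, adjusted p = 0.0137). Neither of these overlapped between the genotypes. Oplah, the 5-oxoprolinase of glutathione turnover, fell by 0.89 (SE 0.18, adjusted p = 0.00696), and Gcdh, glutaryl-CoA dehydrogenase of lysine breakdown, by 0.91 (SE 0.23, adjusted p = 0.0245, but 0.0786 without knockout sample 1). Ppif, cyclophilin D of the mitochondrial permeability pore, and Naprt, which makes NAD from nicotinic acid, were picked after their values were seen. They had no overlap and fell by 0.78 (SE 0.11, adjusted p = 0.000313) and 0.80 (SE 0.16, adjusted p = 0.00547). The remaining large falls were Dusp26, Magix, Zfp869, Pick1, Abcb4, Aebp1 and Llgl2, at -0.86 to -1.14, of which Pick1 alone did not overlap and Magix alone was called in each fit that left out 1 sample. Zfp869 did not fall in all knockout samples. It was 8.47 and 8.33 in knockout samples 1 and 6, within the wild-type 8.06 to 8.65, and 6.61 to 7.22 in samples 2, 3, 4, 5 and 7. After contraction the same knockout numbers had 8.48 and 8.30, against 6.63 to 6.95.

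The called genes of the oxidative lists, from the citric acid cycle to beta-oxidation, fell. In the citric acid cycle 4 of 19 measured genes fell and 0 rose, with a median of -0.185. Idh2, the mitochondrial NADP-dependent isocitrate dehydrogenase, had 7.43 to 8.85 in knockout and 8.53 to 10.04 in wild type (-1.17, SE 0.29, adjusted p = 0.0214, but 0.0654 without knockout sample 1). Idh3a and Idh3g, subunits of the NAD-dependent enzyme of the cycle, fell by 0.59 (SE 0.13, adjusted p = 0.0136) and 0.24 (SE 0.06, adjusted p = 0.0317), and Mdh1, the cytosolic malate dehydrogenase, by 0.46 (SE 0.13, adjusted p = 0.0459). Without knockout sample 1 Mdh1 had an adjusted p of 0.127, and without wild-type sample 2 Idh3g had 0.0746. Within the Eif2s3y-high samples 1 of 19 fell and within the low ones 0 of 19, with medians of -0.24 and -0.12. Of all genes 3.08% were called in the high samples and 0.0954% in the low ones, so 0 calls there set no list apart. Idh2 differed by -1.14 (adjusted p = 0.0369) in the high and -0.82 (adjusted p = 0.114) in the low samples, and Idh3a by -0.25 (adjusted p = 0.639) and -0.70 (adjusted p = 0.0614). In knockout Idh3g ranged from 13.44 to 13.68 and in wild type from 13.74 to 13.97, without overlap. Its second probe differed by -0.06 (unadjusted p = 0.779).

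The respiratory chain genes that were called fell by small amounts. In complex I, which takes electrons from NADH, 5 of 32 measured genes fell and 0 rose, 29 of the 32 lay below 0, where 51.3% of all genes did, and the median was -0.19. Ndufs8, an iron-sulphur subunit, fell by 0.50 (SE 0.10, adjusted p = 0.00824), with 11.97 to 12.89 in knockout and 12.68 to 12.92 in wild type. Ndufs7, Ndufa8, Ndufa10 and Ndufs6 fell by 0.30, 0.31, 0.38 and 0.30, with adjusted p of 0.0189, 0.0202, 0.0279 and 0.03. With 1 sample left out these 4 reached adjusted p of 0.0528, 0.0645, 0.0746 and 0.0774. In complexes III, IV and V 5 of 35 fell and 0 rose, with 29 below 0 and a median of -0.165. Cox8b, a muscle subunit of cytochrome oxidase, fell by 0.50 (SE 0.10, adjusted p = 0.00796), and Uqcr11 of complex III by 0.32 (SE 0.06, adjusted p = 0.00439). Ndufs7 and Uqcr11 lie near the targeted gene: in order along chromosome 10 they were measured genes 222 and 229, and Stk11 was 216. On that chromosome 15 of 418 measured genes were called (3.59%). Whether the place of these 2 genes near Stk11 has a part in their fall was not tested. Atp5h and Atp5g1 of the ATP synthase fell by 0.61 and 0.23, and Uqcrc1 of complex III by 0.44, with adjusted p of 0.0245, 0.0316 and 0.0352. These 3 lost their call in 5, 6 and 10 of the 14 fits that left out 1 sample, with adjusted p of up to 0.0795, 0.0798 and 0.0937. Without knockout sample 1 the calls were 2 of 32 and 2 of 35. Within the Eif2s3y-high samples 2 of 32 and 3 of 35 were called, where 3.08% of all genes were, with medians of -0.36 and -0.31. Within the Eif2s3y-low samples it was 0 of 32 and 0 of 35, where 0.0954% of all genes were called. The medians there were -0.07 and -0.07.

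The called genes of fatty acid oxidation and of mitochondrial regulation also fell. Echs1 and Ech1, a hydratase and an isomerase of beta-oxidation, fell by 0.74 (SE 0.18, adjusted p = 0.0189) and 0.64 (SE 0.16, adjusted p = 0.0214), and these were 2 of 24 measured genes, with a median of -0.26. Both missed the threshold without knockout sample 1, at 0.061 and 0.0527. Within the Eif2s3y-high samples 2 of 24 fell and within the low ones 0 of 24, with medians of -0.37 and -0.09. The shares called of all genes were 3.08% in the high and 0.0954% in the low samples. Acadl and Acads, acyl-CoA dehydrogenases, differed by -0.85 (SE 0.26, adjusted p = 0.0646) and -0.75 (SE 0.23, adjusted p = 0.0668). Plin3, a lipid droplet coat protein, and G0s2, the inhibitor of the lipase ATGL, fell by 0.69 (SE 0.17, adjusted p = 0.0189) and 0.83 (SE 0.22, adjusted p = 0.036), with 0.0621 and 0.107 without knockout sample 1. Ppargc1a, which encodes PGC-1alpha, had 8.56 to 9.33 in knockout, median 8.94, and 9.02 to 10.22 in wild type, median 9.72 (-0.70, SE 0.18, adjusted p = 0.0263, but 0.0627 without wild-type sample 3). Ppargc1a differed by -0.23 (adjusted p = 0.748) in the Eif2s3y-high and -0.86 (adjusted p = 0.0537) in the low samples. Its partner Esrra, the nuclear receptor ERR-alpha, fell by 0.40 (SE 0.12, adjusted p = 0.0487, but 0.107 without knockout sample 2). Crtc3, a CREB coactivator held in the cytoplasm by SIK kinases, was below wild type in all 7 knockout samples (-0.38, SE 0.09, adjusted p = 0.0182). Ckmt2, the mitochondrial creatine kinase, and Slc6a8, the creatine transporter, fell by 0.41 and 0.58, with adjusted p of 0.0398 and 0.0374 (0.0864 and 0.0941 without knockout sample 1). A second probe of Ckmt2 differed by -0.12 (unadjusted p = 0.49).

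**Figure D4:**
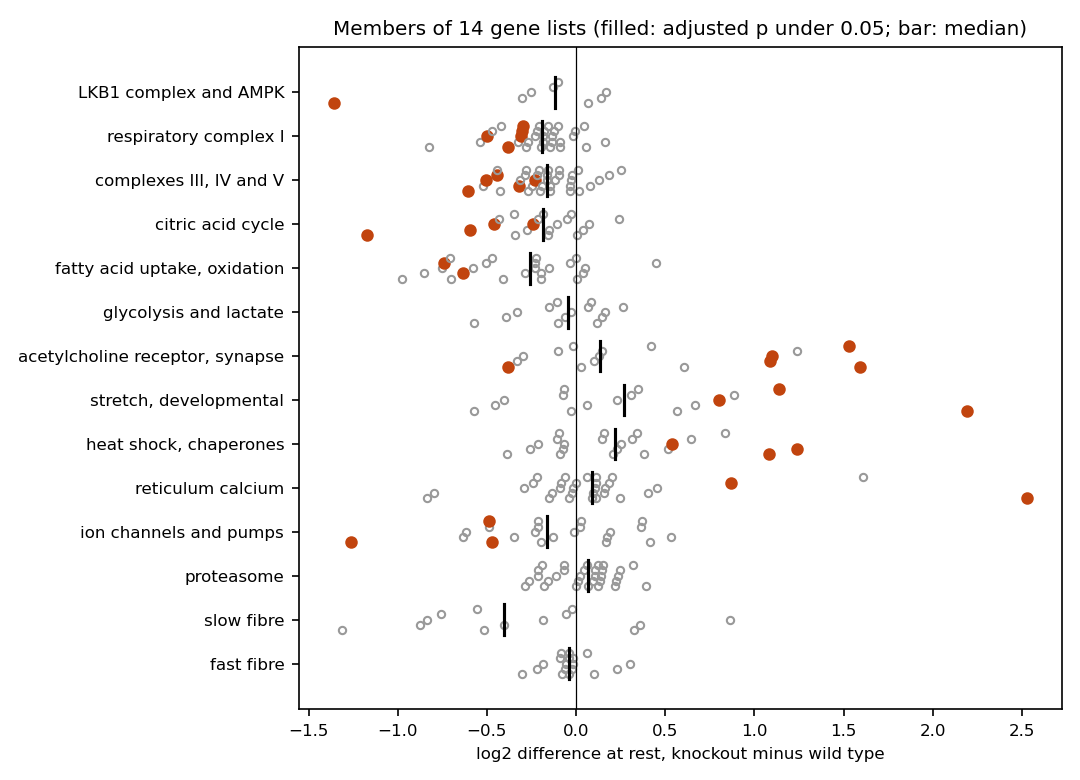
Each circle is a measured gene, placed by its log2 difference at rest (knockout minus wild type) in the row of its list; filled circles have an adjusted p under 0.05 and black bars are list medians. Called genes of the respiratory, citric acid cycle and fatty acid lists lie below 0, called genes of the stretch, chaperone and reticulum lists above 0, and glycolysis, proteasome and fibre-type lists have 0 called.

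Other lists had no called member, where 3.75% of all genes were called, and for lists this short 0 is near that share. These were glycolysis and lactate (0 of 14), glycogen (0 of 13), pyruvate dehydrogenase and its kinases (0 of 8), the proteasome (0 of 31), ribosomal proteins (0 of 28) and immediate-early genes (0 of 23), and also slow-fibre (0 of 13) and fast-fibre genes (0 of 18). Slc2a4, which encodes the glucose transporter GLUT4, had 10.34 to 11.33 in knockout and 10.60 to 11.14 in wild type (-0.10, SE 0.14, adjusted p = 0.691). Hk2 (hexokinase) and Pdk4 (a pyruvate dehydrogenase kinase) differed by -0.39 (SE 0.17, adjusted p = 0.173) and 0.16 (SE 0.21, adjusted p = 0.688). Pygm, the muscle glycogen phosphorylase, differed by -0.38 (SE 0.17, adjusted p = 0.185). Fos and Egr1, transcription factors induced within minutes of stimulation, differed by 0.77 (SE 0.46, adjusted p = 0.329) and 0.61 (SE 0.52, adjusted p = 0.512). The ubiquitin ligases of muscle wasting, Fbxo32 and Trim63, differed by -0.47 (SE 0.18, adjusted p = 0.137) and -0.21 (SE 0.25, adjusted p = 0.651). Myh7, the slow myosin heavy chain, had 6.43 to 10.95 in knockout and 9.34 to 11.33 in wild type, with the lowest value in knockout sample 4 (-1.31, SE 0.70, adjusted p = 0.276).

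The largest rises were mostly highest in the Eif2s3y-high knockout samples. In 17 of the 20 genes with the largest rises the 4 highest knockout samples were 1, 3, 4 and 6, and in 20 of 20 the SD was larger in knockout than in wild type. These 20 were chosen for their height in the same knockout samples, and some were mostly under the dim limit in wild type. Both counts are therefore a description, and no share over all genes was taken. Within the 6 Eif2s3y-high samples, 4 knockout against 2 wild type, 258 genes were called (3.08%), 171 higher and 87 lower, and 1125 had an unadjusted p under 0.05. Within the 8 Eif2s3y-low samples, 3 knockout against 5 wild type, 8 were called (0.0954%) and 1903 had an unadjusted p under 0.05, more than in the high samples. The 315 genes were chosen on these same samples, so their values within the patterns are a description. The median of the 153 that rose was 0.70 in the high and 0.48 in the low samples, and that of the 162 that fell was -0.44 in the high and -0.51 in the low samples. With the pattern as a term in the fit 276 genes were called (3.29%), of which 248 were among the 315.

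A test of the difference between the patterns, in the fit across all genes, called 26 genes (0.31%). Of the genes named here, Chrna1, Myh8 and Nrcam were picked after their values were seen. Chrng differed between genotypes by 2.79 in the high samples and 0.23 in the low samples, a difference of 2.56 (SE 0.31, adjusted p = 5.72e-05). Chrna1 differed by 2.11 and 0.04, which are 2.07 apart (SE 0.37, adjusted p = 0.00705), and Sln by 3.60 and 1.39, which are 2.21 apart (SE 0.45, adjusted p = 0.0198). Myh8, the perinatal myosin heavy chain, averaged 10.84 ± 0.155 in the 4 high knockout samples, 8.239 ± 0.462 in the 3 low ones, 7.931 ± 0.159 in the 2 high wild-type samples and 9.21 ± 0.124 in the 5 low ones (SD). Its genotype difference was 3.88 larger in the high samples (SE 0.58, adjusted p = 0.00126). Gadd45a, Tubb2b, Nrcam (a neuronal adhesion molecule), Timp1, Krt8, Myog, Fbxl13 and Camk2d were also called, with 1.35 to 2.80 between the patterns. The wild-type side of the high pattern is 2 samples, the count was 10 without wild-type sample 5 and 160 without knockout sample 7, and Chrng, Myh8, Gadd45a, Tubb2b, Nrcam and Fbxl13 were called in all 14 fits that left out 1 resting sample. Chrna1 and Timp1 were called in 13 of these 14 fits, Sln in 11, Camk2d in 9, Myog in 6 and Krt8 in 4, with adjusted p reaching 0.108, 0.144, 0.439, 0.273, 0.247 and 0.439. Fbxl13 was above the dim limit on 0 wild-type arrays and Nrcam on 1, so both entered the test mostly through knockout samples. The sizes of their differences depend on the background correction. No such call was made for Stk11, Snai3, Tmem100 or Cyb5r3, whose differences between the patterns were 0.53 (SE 0.25), 0.04 (SE 0.57), -0.02 (SE 0.46) and 0.08 (SE 0.41), with adjusted p of 0.326, 0.984, 0.99 and 0.946.

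**Figure D5:**
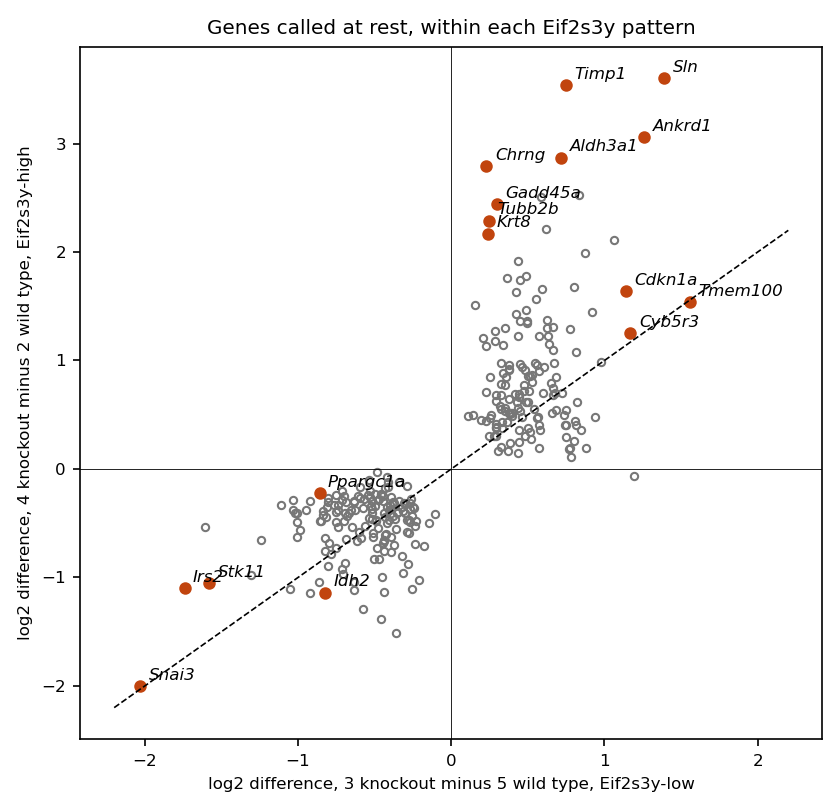
Each circle is 1 of the 315 genes called at rest, with its log2 difference (knockout minus wild type) within the 8 Eif2s3y-low samples on the horizontal axis and within the 6 Eif2s3y-high samples on the vertical axis; the dashed line marks equal differences and filled circles are named. Chrng, Gadd45a, Tubb2b and Krt8 lie near 0 on the horizontal axis and above 2 on the vertical axis, and Snai3, Tmem100 and Cyb5r3 lie near the dashed line.

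The pattern also went with transcripts within each genotype alone. The genes named for this, Trnp1, Grb10 and Odc1, were picked after their values were seen. Trnp1, a nuclear protein known from cortical progenitors, was 7.21 ± 0.496 in the 4 high knockout samples and 6.515 ± 0.116 in the 3 low ones (SD). In wild type Trnp1 was 10.40 ± 0.105 in samples 4 and 5 and 6.36 ± 0.222 in the other 5 (SD; difference 4.04, adjusted p = 1.35e-11). It was above the dim limit on 3 knockout and 2 wild-type arrays. Wild-type samples 4 and 5 were also the wild-type samples high in lymphocyte markers, at 9.395 and 9.143 against 6.862 to 7.233, so within wild type the Eif2s3y pattern and the lymphocyte level cannot be told apart. The median difference of the 11 lymphocyte markers between genotypes was -1.19 in the high and 0.77 in the low samples, with 0 called in either, and their part in the pattern results was not tested. Grb10, an adaptor that inhibits insulin and IGF receptors, differed, high minus low, by -0.82 within knockout (adjusted p = 0.000909) and -1.18 within wild type (adjusted p = 0.000241). Odc1, the rate-limiting enzyme of polyamine synthesis, differed by 1.21 within knockout (adjusted p = 6.35e-05) and 0.90 within wild type (adjusted p = 0.0172). In all, 467 genes were called between the patterns within knockout (5.57%) and 60 within wild type (0.715%).

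Other probes of the called genes mostly had the same direction. Of the 315 called genes 95 had 128 other kept probes, and 121 of these (94.5%) had the direction of the brightest probe, against 66.7% for 2556 other probes of genes that were not called. Of the 128, 71 had the same direction with an unadjusted p under 0.05, and 7 ran the opposite way. They measure the same samples on which the genes were called, so their shared direction is not separate support. After contraction 744 genes were called between knockout and wild type (8.87%). Of the 315, 259 were called there in the same direction, which is 82.2% of the resting and 34.8% of the contracted calls, and 315 of 315 had the same sign. The resting and contracted samples are not independent sets. Deviations from the group mean correlated between equal numbers at rest and after contraction at 0.374 to 0.849 in knockout (7 of 7 over 0.1) and -0.0382 to 0.55 in wild type (5 of 7), so the shared calls are not separate support. Whether equal numbers mark 1 animal is not stated. A difference of the genotype effect between rest and contraction was called for 0 genes by limma, with 52 at an unadjusted p under 0.05 and 2 called with array weights. Ppargc1a differed by -0.28 after contraction (adjusted p = 0.33) beside -0.70 at rest, Irs2 by -0.97 (adjusted p = 0.057) beside -1.46, and Fos by 2.16 (adjusted p = 0.0048) beside 0.77. In the contracted knockout samples 1, 3, 4 and 6 Chrng was 9.56, 9.13, 9.58 and 9.39, and in samples 2, 5 and 7 it was 6.81, 6.88 and 7.61.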

How the data were processed

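RNA of 28 muscle samples, 7 in each of 4 groups, was labelled and hybridised to Illumina bead arrays. The deposited table holds linear intensities, which the values show to be background-subtracted and quantile-normalized between arrays (27.2% below 0). Per the submitters' processing notes the tools included limma 3.1, lumi 3.0 and R 3.1.2, with no order of steps stated. A second deposited table gives raw intensities with a detection p-value per probe, per the file headers; 21 of its sample columns could not be matched to labels and were not used. In the 7 matched resting wild-type columns 36% to 43.1% of probes were detected, and a detection p-value of 0.05 lay at a normalized intensity of 21 to 39.3.

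Intensities were corrected by normexp with an offset of 50 and log2 transformed. Probes over 24 on at least 7 arrays were kept, and the brightest stood for its gene. The 4 group means were fitted to 28 arrays in limma 3.58.1 (R 4.3.3), with Benjamini-Hochberg adjustment over 8389 genes. The fit was tested on simulated data. Probe names come from the platform annotation, and promoters from RefSeq. The members and gene lists were chosen with earlier results of these data known. Genes are named as Stk11, the 20 largest called rises, the 20 largest called falls and 7 genes of interest. Up to 5 genes of lowest p in each list are named too. Others were picked after their values were seen and are marked so in the text, except Trim63, Erfe, Odf3l2 and the pattern markers Eif2s3y and Xist. Replicate numbers were not taken to pair the genotypes, since same-numbered resting samples correlated in their deviations at -0.181 to 0.566, with 4 of 7 over 0.1. Array numbers limit the precision. Alternatives are given in the closing section.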

Additional observations from a re-analysis of the deposited data

Results flagged for a closer look

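In 13 of 374 groups of 7 resting samples (3.48%), 1 sample stood apart from the other 6, with a gap to the nearest of them, as a share of the group's range, above Dixon's 95% critical value for 7 samples; chance gives about 1 in 20. In knockout the gap was 0.683 for Fbxo32, where sample 2 was highest, 0.628 for Ech1, where sample 1 was lowest, and 0.655 for Myl3, a slow-fibre myosin light chain, where sample 4 had 11.71 against 14.19 to 15.49 in the others. The mean of the slow-fibre list gave 0.676, again with sample 4 lowest. The circadian clock list gave 0.584 with knockout sample 3 highest, and the fibroblast list 0.570 with knockout sample 5 highest.

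In wild type the gap was 0.656 for Nrep, with sample 1 highest, 0.795 for Runx1, with sample 7 highest, 0.667 for Crtc3, with sample 2 highest, and 0.599 for Lum, with sample 3 lowest. Among the lists it was 0.585 for the circadian clock and 0.701 for satellite cells, both with wild-type sample 2 lowest, and 0.588 for adipocytes, with wild-type sample 5 highest.

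The genotype difference was larger in the Eif2s3y-high than in the Eif2s3y-low samples, by limma's test of the difference across all genes, for 17 named genes. Myh8 had the largest such difference, 3.88 on the log2 scale, followed by Timp1 at 2.80, Chrng at 2.56, Sln at 2.21, Gadd45a at 2.14, Chrna1 at 2.07 and Tubb2b at 2.04. Krt8 followed at 1.93, Aif1l at 1.40, Myog at 1.37, Camk2d at 1.35 and Arfgap3 at 1.00. The fit gave 2.11 for Gsta1, 1.48 for Fbxl13 and 1.22 for Fgf21, which were above the dim limit on 0 wild-type arrays. It gave 1.87 for Nrcam, above the limit on 1 wild-type array. For Erfe it gave 1.41, with wild-type values of 6.31 to 6.77 beside 6.39 to 6.75 for Nrcam. The sizes for these genes depend on the background correction and have no place in that order. The genotype difference ran the opposite way for Trnp1, at -3.34, and for Odf3l2, at -2.85. These groups were formed after the data were seen, the cause was not tested, and the wild-type side of the high pattern is 2 samples.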

How the results depend on the processing

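None of the 90 called genes among the 140 named changed direction under any setting run. Settings moved the number of calls more. The 315 calls at rest became 207 with no filter on dim probes, 951 with array weights, 14 without the 5 samples high in lymphocyte markers and 8 within the Eif2s3y-low samples, the last 2 chosen after the data were seen and made on fewer samples. They ranged from 109 to 676 when 1 resting sample was left out. After contraction the 744 calls became 2615 with array weights and ranged from 409 to 1702 with 1 sample left out, and the difference between states, with 0 calls, had 2 with array weights. The 26 calls between Eif2s3y patterns ranged from 10 to 160. Other settings gave 226 to 404 calls at rest. The 226 came from the 14 resting arrays alone, with 204 of them among the 315, and 26 of the 90 named calls were lost there. With the replicate number as a fixed block 243 genes were called, 176 of them among the 315, and as a random block within genotype 404; these numbers are not known to pair the samples. The calls of 52 of 90 named genes were lost without knockout sample 1, and 4 were made under every setting. The causes were not tested. Signal over background limits genes near the dim limit, for which a fold is a lower bound.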

Other observations

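Genes outside the comparisons above also moved at rest. Of those below, Aif1l and Arfgap3 were picked after their values were seen. Aif1l, an actin-binding protein, had 7.88 to 9.85 in knockout and 7.45 to 8.30 in wild type (log2 difference 1.15, SE 0.28, adjusted p = 0.0214 by limma, but 0.0668 without knockout sample 1). Arfgap3, which acts on Golgi vesicle coats, had 8.06 to 9.01 in knockout and 7.61 to 8.19 in wild type (0.71, SE 0.16, adjusted p = 0.0138). Itga7, the laminin-binding integrin of muscle fibres and satellite cells, rose by 0.58 (SE 0.16, adjusted p = 0.0424, but 0.124 without knockout sample 1), the 1 called of 6 satellite cell markers. Csnk1e, a kinase of the circadian clock, fell by 0.57 (SE 0.14, adjusted p = 0.0214, but 0.0689 without knockout sample 1), the 1 called of 17 clock genes. Cx3cl1, the chemokine fractalkine, rose by 0.92 (SE 0.26, adjusted p = 0.0456, but 0.124 without knockout sample 1), the 1 called of 26 cytokine and inflammation genes.

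Gsta1, a glutathione transferase, and Fgf21, a hormone that stressed muscle can release, were above the dim limit on 5 knockout arrays and 0 wild-type arrays each. Measured against that limit they were at least 1.97-fold and at least 1.38-fold higher in knockout, and neither was called (adjusted p = 0.0605 and 0.0785).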
